A study of Mus musculus with 4 samples.

Results

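The nuclear genes of oxidative phosphorylation were examined in RNA-seq libraries from imiquimod-treated mouse skin, comparing Mettl3fl/fl;Cd4-Cre with Mettl3fl/fl mice. Members were all genes whose symbols name subunits of NADH dehydrogenase (complex I, Nduf genes), succinate dehydrogenase (complex II, Sdh genes), the cytochrome bc1 complex (complex III, Uqcr genes and Cyc1), cytochrome c oxidase (complex IV, Cox4 to Cox8 genes) and ATP synthase (complex V, Atp5 genes). Of 93 gene identifiers with such symbols, 7 pseudogenes marked as such in their symbols were left out, as was Cox6c2, which is annotated as a processed pseudogene. The remaining 85 of 55335 gene identifiers comprised 36 genes of complex I, 4 of complex II, 9 of complex III, 18 of complex IV and 18 of complex V. They lay on 19 chromosomes and carried 84 symbols, since 2 identifiers shared the symbol Atp5o. The symbols place Ndufa4 in complex I and Atp5s, a coupling factor, in complex V, and both were kept there.

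The 4 libraries were 2 from Mettl3fl/fl mice (controls) and 2 from Mettl3fl/fl;Cd4-Cre mice (knockouts), all between 8 and 12 weeks of age. Mettl3 encodes the catalytic subunit of the RNA N6-methyladenosine methyltransferase. All mice carried the floxed allele and all had 5% imiquimod cream, a Toll-like receptor agonist used to model psoriasis, on the back daily for 5 days at 15 or 62.5 mg. Strain, sex, the amount of cream per mouse and the number of mice per library are not given in the sources used here. Cells of the dermal suspension were stained for CD4 and CD45 and labelled as CD4+ T cells, but the sources used here do not give the sort gate. Cre driven by Cd4 acts in developing T cells, so its deletion is not limited to CD4+ T cells. Skin cells in which this Cre did not act keep the floxed allele.

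Oxidative phosphorylation passes electrons from NADH and succinate through complexes I to IV to oxygen, and complex V uses the resulting proton gradient to make ATP. Complexes I, III, IV and V combine subunits encoded in the nucleus with subunits encoded in mitochondrial DNA, whereas complex II is encoded in the nucleus alone. T cells take up this pathway together with glycolysis when they are activated, and memory and regulatory T cells rely on it more than effector cells do.

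The promoters of these genes are known for elements of the factors NRF-1, GABP (an ETS factor) and YY1. RefSeq windows of GRCm38.p6, from 250 bases before to 50 bases after the gene start, matched 68 of the 84 symbols. In complexes III and IV, the windows of Uqcrfs1 and Cox5b, the highest-level members with a window, held no match to such elements. The windows of 3 genes are shown for the highest-level members of complexes I, II and V, because they hold matches. Each runs 5′ to 3′ on the gene's strand, in lower case, with matches to the NRF-1, ETS and YY1 letters in capitals. The Sdhd window (chr9:50603800-50604099, minus strand) holds an NRF-1 and an ETS match, the Ndufb11 window (chrX:20617570-20617869, minus strand) and the Atp5b window (chr10:128083057-128083356, plus strand) a YY1 match each.
Sdhd: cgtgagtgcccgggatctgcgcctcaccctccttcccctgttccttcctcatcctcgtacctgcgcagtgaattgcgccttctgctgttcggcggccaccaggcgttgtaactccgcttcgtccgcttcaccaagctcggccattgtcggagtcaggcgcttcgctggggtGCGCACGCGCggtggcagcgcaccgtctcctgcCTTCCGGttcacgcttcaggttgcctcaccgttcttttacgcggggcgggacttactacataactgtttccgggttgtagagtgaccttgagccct
Ndufb11: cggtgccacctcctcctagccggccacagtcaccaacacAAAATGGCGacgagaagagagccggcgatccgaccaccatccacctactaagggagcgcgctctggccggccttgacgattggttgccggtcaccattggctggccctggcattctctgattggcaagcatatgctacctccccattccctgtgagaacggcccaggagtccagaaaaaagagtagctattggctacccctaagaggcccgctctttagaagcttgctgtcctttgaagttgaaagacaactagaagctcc
Atp5b: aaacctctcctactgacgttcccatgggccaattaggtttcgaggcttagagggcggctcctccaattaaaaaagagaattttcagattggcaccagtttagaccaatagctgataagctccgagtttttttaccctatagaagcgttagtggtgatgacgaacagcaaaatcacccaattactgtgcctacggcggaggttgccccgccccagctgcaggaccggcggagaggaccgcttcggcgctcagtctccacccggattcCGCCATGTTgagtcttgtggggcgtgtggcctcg

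On both strands, the NRF-1 element (GCGCA, any base, GCGC) was found in 16 of the 68 member windows (23.5%), against 6.66% of 17491 windows of protein-coding genes. The letters AANATGGCG (YY1) were found in 8 member windows (11.8%) against 3.28%, and CCGGAAG (ETS) in 15 (22.1%) against 11.9%. The ERR letters TCAAGGTCA were found in 2 member windows (2.94%) against 0.332%. Letters of general promoter elements were about as common in members as in other genes: GGGCGG (Sp1) was in 41.2% against 46.3%, CCAAT in 44.1% against 39.2% and TATAAA in 10.3% against 13.3%. None of these letters contains another, although matches can overlap in a window. Median GC content was 57.2% in member windows and 56.3% in those of protein-coding genes. A further feature of the members was a divergent neighbour: 19 of the 85 (22.4%) had the start of a gene on the other strand within 1000 bases upstream, against 6.78% of 21951 protein-coding genes. Sdhd faces Timm8b at 98 bases, Sdha faces Ccdc127 at 29 bases and Ndufb9 faces Tatdn1 at 18 bases (GENCODE M21). These shares are descriptions, and no binding was measured.

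The libraries held 3614418 to 4537006 counted fragments, at which a count of 0 allows up to 0.655 to 0.792 CPM (3 fragments). Levels are CPM, which are counts scaled to library size by TMM, and with 2 libraries a group, a p-value reflects only how these libraries vary, which may be technical. Mettl3 had 195 and 49 fragments in controls 1 and 2, against 121 and 158 in knockouts 1 and 2. None lay in an exon of a protein-coding transcript, and the sources used here do not name the deleted exons, so this gene does not check the genotypes. Markers of other cell types stood beside those of the labelled one: 16 T cell markers summed to between 177 and 1174 CPM, 16 macrophage and monocyte markers to between 10365 and 33437 CPM, and Cd4 itself had 0 fragments in control 2. Macrophage markers were higher in both knockouts than in both controls for 12 of 15 tested genes, against 19.5% of all tested genes. T cell markers were lower in both knockouts for 6 of 16, against 11.2%. Control 2 stood apart, with 14 keratinocyte markers at 29895 CPM against 1440 to 3149 CPM elsewhere. Y-linked transcripts had 76 and 118 fragments in control 1 and knockout 2, against 1 and 0 in control 2 and knockout 1. The part of any of these in the values of the members was not tested, and fewer cells of a type and less RNA per cell cannot be told apart in such bulk samples.

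The way fragments were counted limited which members could be measured. Fragments were counted per annotated exon, and one that touched more than 1 exon entry was not counted, so the counted bases of a gene are those covered by a single entry. For members the median of these countable bases was 56.7% of exonic bases, and the median number of annotated transcripts was 4, with a maximum of 14. Of the members, 6 had no fragment in any library: Cox6b1, Ndufs5, Cox4i2, Cox7b2, Cox8c and the second Atp5o identifier. Cox6b1 and Ndufs5, which are widely expressed subunits, had 205 of 708 and 346 of 860 bases countable, and the second Atp5o had none. Another 11 had too few fragments to be tested, among them Atp5c1, the gamma subunit of the ATP synthase rotor, and Ndufs3, a core complex I subunit with 2 fragments in all. A level near 0 of such a subunit therefore says little about its expression.

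The 13 members annotated with 1 transcript gave the least restricted view, apart from the second Atp5o identifier, which had no countable base. Of the 13, 10 had a fragment. The set held 56.5% of all 95001 member fragments, although it was 13 of 85 genes. Per countable kilobase, mean levels were 675 CPM for Ndufa2, 639 CPM for Sdhd, 501 CPM for Ndufb11, 467 CPM for Uqcrfs1, 463 CPM for Ndufa1, 425 CPM for Ndufa13, 376 CPM for Ndufa8 and 278 CPM for Ndufb3. These 8 subunits of complexes I to III thus lay between 278 and 675 CPM. The muscle isoforms Cox6a2 and Cox8b, also with 1 transcript, were far lower at 8.24 and 7.08 CPM per countable kilobase. Members with 2 transcripts included Uqcrb at 421, Ndufb6 at 411 and Ndufb9 at 394 CPM per countable kilobase, whereas Ndufs1, with 13 transcripts, stood at 4.71 and Ndufv1, with 14, at 7.48. These are the ends of a mixed range. Cox8a and Cox7a1, also with 2 transcripts, stood at 56.3 and 2.27, and Atp5b and Sdha, with 9, at 98.9 and 74.9.

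**Figure D1:**
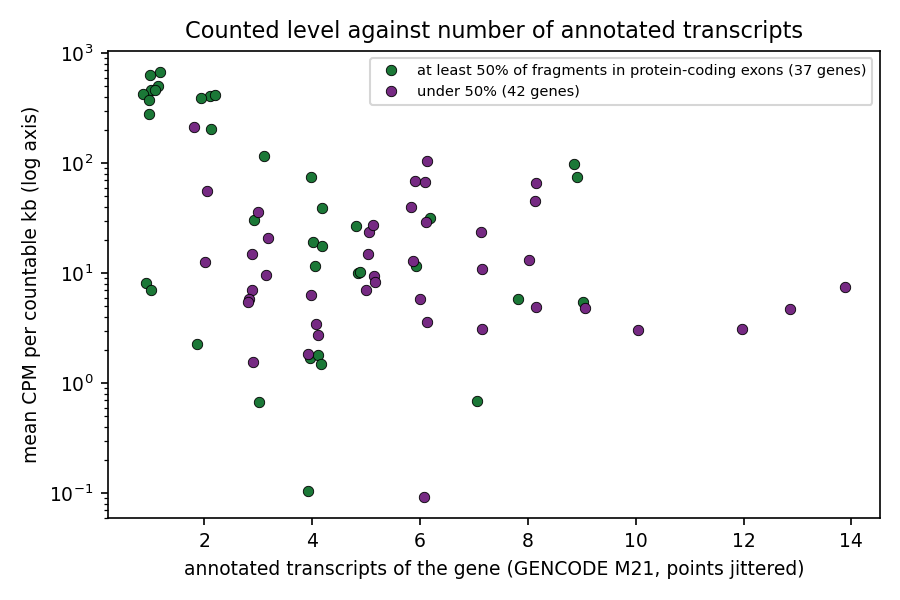
Mean level per countable kilobase (CPM, log axis) of the 79 members with a fragment against their number of annotated transcripts, coloured by whether at least 50% of the fragments lay in exons of protein-coding transcripts. The highest levels, up to 675 CPM per countable kilobase, are those of members with 1 or 2 transcripts.

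**Figure D2:**
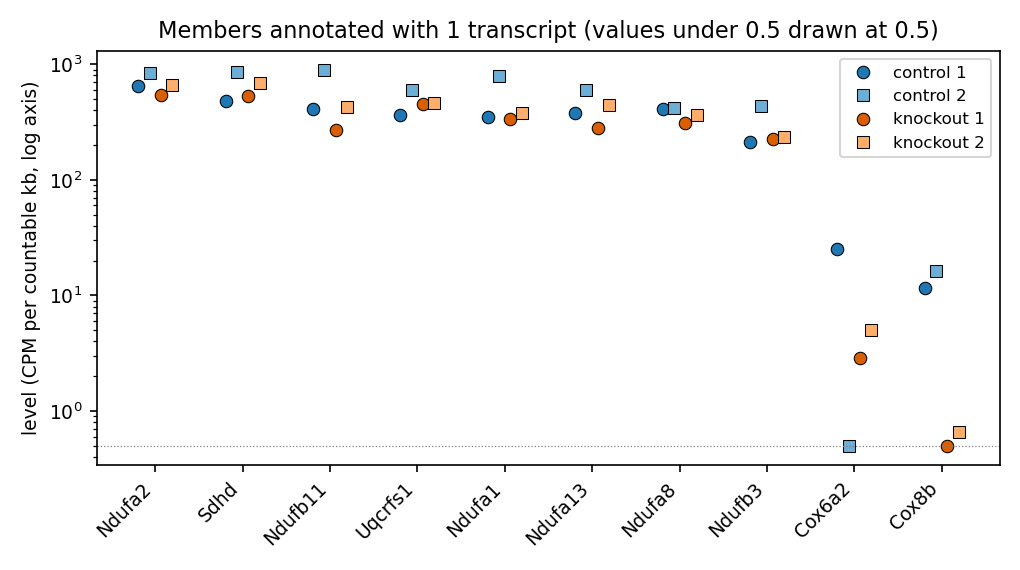
Level per countable kilobase (log axis) of the 10 tested members annotated with 1 transcript in each of the 4 libraries. Control 2 is highest for 9 of the 10, and Cox6a2 and Cox8b sit far below the other 8.

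No member passed the test between knockout and control libraries. In edgeR's quasi-likelihood test, 0 of 68 tested members passed an adjusted p of 0.05, as did 0 of all 12434 tested genes (0.0%), and the lowest adjusted p of a member was 0.9997. At an unadjusted p under 0.05 the count of members was also 0, against 1.5% of all genes, and DESeq2 and limma-voom called 0 members, beside 0.188% and 0.0% of all genes. Fitted differences were positive for 35 members and negative for 33, with a median log2 fold change of knockout over control of 0.05, against 0.20 over all tested genes. Both knockouts lay above both controls for 5 of 68 members (7.35%), against 19.5% of all tested genes. Both lay below both controls for 9 members (13.2%), against 11.2%. The 5 were Ndufa6, Uqcrh, Cox5b, Atp5l and Atp5mpl, and the 9 were Ndufa8, Ndufa10, Ndufb5, Ndufs1, Cyc1, Uqcrq, Cox8a, Cox8b and Atp5j2.

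The 2 controls differed from each other more than control 1 differed from either knockout. Over the 52 members with a fragment in every library, the median absolute log2 difference was 1.02 between the 2 controls and 0.58 between the 2 knockouts. Control 1 differed from knockout 1 by a median of 0.34 and from knockout 2 by 0.38. Over all 7866 genes with a fragment in every library, the same medians were 1.31, 0.69, 0.59 and 0.55. Knockout 2 was the highest library for 28 of the 68 tested members (41.2%, against 23.6% of all tested genes). Control 2 was the highest for 25 (36.8%, against 27.0%). Control 2 was also the library with most zeros, at 0 for 15 of the 68 (22.1%, against 32.7% of all tested genes).

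**Figure D3:**
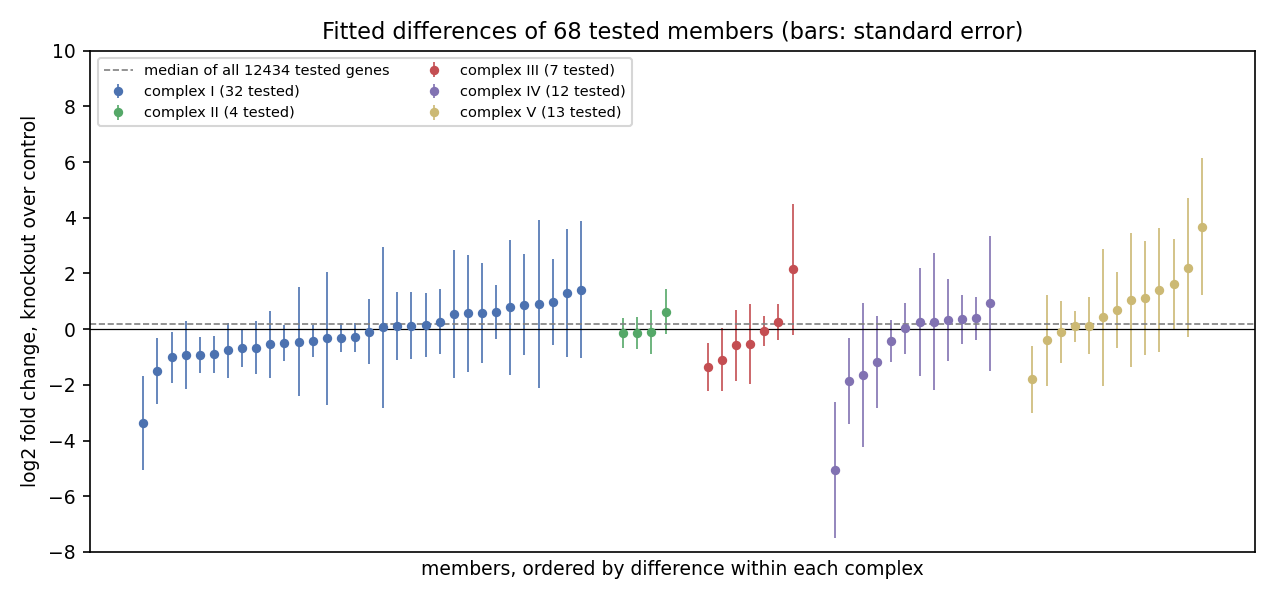
Log2 fold change of knockout over control with its standard error for the 68 tested members, ordered within complexes I to V. The dashed line is the median of all 12434 tested genes (0.20), and the members run from -5.06 to 3.68, with the widest errors where fragments were few.

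Summed over all members, levels were 5069 and 7649 CPM in controls 1 and 2 and 4660 and 5704 CPM in knockouts 1 and 2. The groups overlapped, with control 2 the highest and knockout 1 the lowest. The log2 ratio of the means was -0.30 (exact permutation test over the 4 libraries, two-sided p = 0.667, where 0.333 is the smallest p this design allows) and 0.02 without control 2. By complex, the sums in controls 1 and 2 and knockouts 1 and 2 were 2393, 3794, 1846 and 2494 CPM for complex I. Complex II summed to 1106, 1385, 1164 and 1315 CPM, and complex III to 867, 1625, 949 and 1055 CPM, in the same order. In each of these 3 complexes control 2 was the highest library. Complex IV summed to 318, 429, 264 and 419 CPM. Complex V summed to 386, 417, 438 and 420.3 CPM, and it was the complex in which both knockouts lay above both controls, by 0.10 on the log2 scale. That order alone gives p = 0.333, the smallest possible (exact permutation test, two-sided). The order did not hold in shares of all counted fragments, without TMM. These were 0.0389% and 0.0437% in controls 1 and 2, and 0.0407% and 0.0408% in knockouts 1 and 2.

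**Figure D4:**
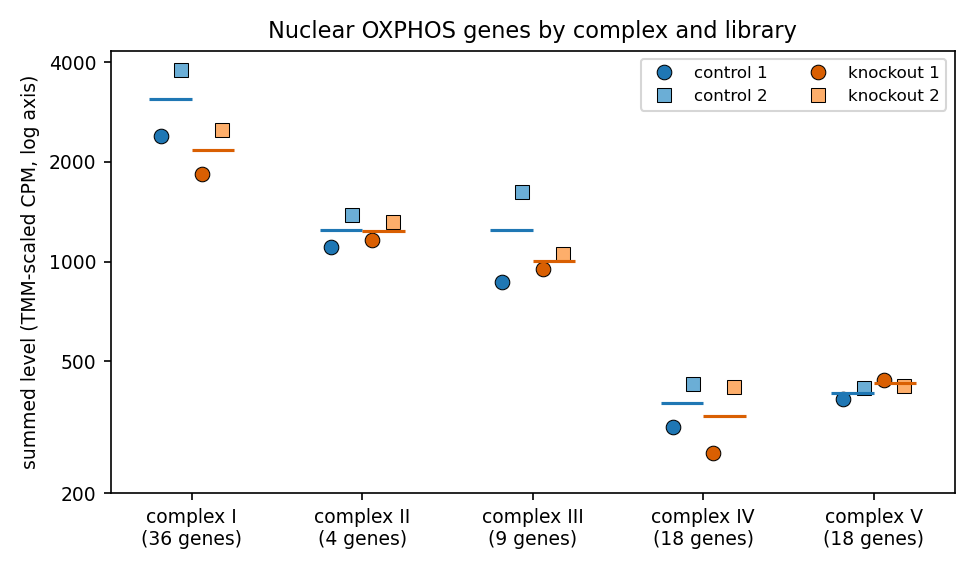
Summed level (CPM, log axis) of the members of each complex in the 4 libraries, with a bar at each group's mean. Control 2 is the highest library in complexes I to IV, and in complex V the 4 libraries lie between 386 and 438 CPM.

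The median log2 fold change of complex I members was -0.19 over 32 tested genes, 15 positive and 17 negative, which was 0.03 without a filter on low counts. Ndufb11, an accessory subunit of the membrane arm, was the highest, at 324 and 711 CPM in controls 1 and 2 and 213 and 336 CPM in knockouts 1 and 2. Its log2 fold change was -0.92 (SE 0.64), and the knockouts lay on either side of control 1. It was -0.25 without control 2, -0.56 without knockout 1 and -1.31 without control 1. Ndufa13, an accessory subunit also known as GRIM-19, stood at 330.5 and 524 CPM, against 245 and 390.1 CPM in the knockouts. Ndufa2, an accessory subunit of the matrix arm, stood at 328 and 426 CPM against 276 and 336 CPM. The groups of both genes overlapped through control 1 and knockout 2. Ndufa8, of the intermembrane-space face, had both knockouts below both controls, at 354 and 360.3 CPM against 265 and 316 CPM, with a log2 fold change of -0.30 (SE 0.52), which was -0.13 without knockout 1.

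Of the accessory B subunits, 8 of 9 tested were negative, with a median of -0.66, against 43.1% negative among all tested genes. The sums over all 10 B subunits were 915 and 1781 CPM in the controls and 682 and 955 CPM in the knockouts, so knockout 2 lay above control 1, and without control 2 the split was 6 negative and 4 positive with a median of -0.19. The 12 tested A subunits had 7 positive and 5 negative values and a median of 0.09. The 7 core subunits of the matrix arm, 6 of them tested, include those that carry the flavin and the iron-sulfur clusters, and they summed to 57.7 to 111 CPM. Among these, Ndufs1, the largest iron-sulfur subunit, had 75 and 260 fragments in the controls, against 29 and 4 in the knockouts. Both knockouts lay below both controls, with a log2 fold change of -3.37 (SE 1.68) and, in edgeR's quasi-likelihood test, an adjusted p of 0.9997. With a library left out the log2 fold change ran from -5.37 (without knockout 1) to -2.00 (without control 2). Of its fragments 97.8% lay in exons that only retained-intron transcripts hold, and 342 fragments lay in a single such exon at chr1:63150233-63152842. Ndufa10, an accessory subunit with 98.9% of fragments in such exons, likewise had 151 and 120 fragments against 47 and 47.

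Complex II was measured through all 4 of its subunits, with 1 positive and 3 negative values and a median of -0.10. Sdhd, a membrane anchor that binds ubiquinone, was the highest of all members, at 589 and 1054 CPM in controls 1 and 2 and 658 and 843 CPM in knockouts 1 and 2. Both knockouts lay between the controls, and the log2 fold change was -0.13 (SE 0.55). Of its fragments 84.9% came from 1 exon, chr9:50596357-50597250 (GRCm38), in which 163 of 894 bases are coding. Sdhb, the iron-sulfur subunit, varied least of the 4, at 194 and 190.3 CPM against 161 and 193 CPM. Sdhc, the other anchor, stood at 75.3 and 71.5 CPM against 52.4 and 85.8 CPM. Neither gene separated the groups, with log2 fold changes of -0.12 (SE 0.57) and -0.09 (SE 0.79).

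Sdha, the flavoprotein that oxidises succinate, differed more between the controls than between the means of the genotypes. It stood at 247 CPM in control 1 and 68.9 CPM in control 2, and at 292 and 194 CPM in the knockouts. The log2 fold change was 0.62 (SE 0.81), and control 2 was the low library, in contrast to Sdhd. It was -0.03 without control 2 and 1.89 without control 1. An exon at chr13:74322254-74323173 held 262, 288 and 227 fragments in control 1, knockout 1 and knockout 2, and 2 fragments in control 2.

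The median log2 fold change of complex III was -0.53 over 7 tested members, 2 positive and 5 negative, which was 0.20 without control 2 and 0.08 without a filter on low counts. Uqcrfs1, the Rieske iron-sulfur protein, stood at 491 and 809 CPM in the controls, against 617 and 628 CPM in the knockouts. Its log2 fold change was -0.06 (SE 0.53), and both knockouts lay between the controls. Uqcrb, a subunit near the ubiquinone site, stood at 123 and 606 CPM in the controls and 128 and 157 CPM in the knockouts. Control 2 was the one high library, and the log2 fold change of -1.36 (SE 0.88) was 0.20 without it. Uqcrc1, a core protein of the matrix side, stood at 189 and 117 CPM against 147 and 218 CPM, so its groups overlapped. Its log2 fold change was 0.25 (SE 0.64), and -0.063 without control 2, and 74.3% of its fragments lay in retained-intron exons. Cyc1, which carries the heme of cytochrome c1, had 55 and 54 fragments against 36 and 39, and Uqcrq had 154 and 137 against 80 and 53. Both had knockouts below controls, with log2 fold changes of -0.53 (SE 1.43) and -1.10 (SE 1.14), the latter -0.73 without knockout 2. Uqcrh, the hinge protein, had 20 and 0 fragments against 34 and 47, all from exons of retained-intron transcripts.

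Complex IV was counted at lower levels, with 6.22% of member fragments from 18 genes and a median log2 fold change of 0.14 over 12 tested genes, which was -0.51 without knockout 2. Cox6c stood at 96.5 and 212 CPM in the controls and 80.1 and 148 CPM in the knockouts, with knockout 2 between the controls. Cox5b stood at 63.1 and 55.7 CPM against 70.6 and 84.6 CPM. Cox5a stood at 50.6 and 41.2 CPM against 43.9 and 73.3 CPM. Of these structural subunits around the catalytic core, Cox5b alone had both knockouts above both controls, with a log2 fold change of 0.39 (SE 0.78). At least 95.8% of the fragments of each of the 3 genes lay in retained-intron exons.

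Some subunits of complex IV come as isoforms of different tissues. The widely expressed Cox6a1 had 194 and 180 fragments in the controls, against 143 and 237 in the knockouts. Its muscle counterpart Cox6a2 had 70 and 0 against 7 and 13. Cox8a, the widely expressed form, had 45 and 86 fragments against 15 and 22, both knockouts being lower, at a log2 fold change of -1.86 (SE 1.56), which was -1.14 without control 2. Its counterpart Cox8b of heart, muscle and brown fat had 19 and 22 fragments in the controls, against 0 and 1 in the knockouts. Of the Cox8a fragments 96.4% lay in 1 exon of 69 bases, of a nonsense-mediated decay transcript. Those of Cox6a1 lay 100% in a retained-intron exon, and those of Cox6a2 and Cox8b 100% in exons of protein-coding transcripts. The ratio of control to knockout levels of Cox8b was 40.3, with an exact 95% counting interval of 6.85 to 1632, on 41 and 1 fragments. Its adjusted p in edgeR was 0.9997, so it did not pass the test. Muscle Cox7a1 had 8 fragments in control 1 and 0 elsewhere. Summed CPM of 10 skeletal muscle markers were 76.0 and 0 in controls 1 and 2, and 4.74 and 109 in knockouts 1 and 2. All 10 markers were at 0 in control 2, as were 6 of the 10 in each of the other libraries. Adipocyte markers summed to 53.0, 747, 169 and 785 CPM. The part of these cell types in the values of Cox6a2, Cox7a1 and Cox8b was not tested.

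The other isoform pairs gave few fragments. Cox4i1, the regulatory subunit found in most tissues, had 24 and 70 against 26 and 17, and its lung form Cox4i2 none. The testis form Cox6b2 had 23 and 0 against 14 and 11, and Cox8c and Cox7b2, also of testis, none. Cox7a2 had 30 and 0 against 18 and 34. Cox7a2l, a factor of respiratory supercomplexes, had 13 and 0 against 0 and 1. The ratio of control to knockout levels of Cox7a2l was 12.8, with an exact 95% counting interval of 1.92 to 544, on 13 fragments of control 1 and 1 of knockout 2, too few to be tested in edgeR. Control 2 was at 0 for Cox6b2, Cox7a2 and Cox7a2l.

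The median log2 fold change of complex V was 0.68 over 13 tested members, 10 positive and 3 negative, against 56.9% positive among all tested genes. Atp5b, the catalytic beta subunit, had the most counts of the complex and stood at 226 and 232 CPM in the controls and 286 and 207 CPM in the knockouts, for a log2 fold change of 0.11 (SE 0.56). Atp5f1, a subunit of the peripheral stalk, was the most even, at 27.7 and 32.7 CPM against 30.5 and 35.5 CPM. Both genes had overlapping groups, and 99.4% of the Atp5f1 fragments lay in retained-intron exons. Of the 13 tested members, 4 had no fragment in control 2. The median was 2.18 without control 1, beside 1.72 for all genes in that fit, and 0.17 without control 2, beside 0.05. Without knockout 2 it was 0.11, with 8 positive and 6 negative members, beside 0.10 for all genes. Among genes at a mean of at least 5 CPM it was 0.17, beside 0.12, and with limma-voom 1.12, beside 0.44. Only 6 members could be tested without retained-intron exons, with a median of 1.13, beside 0.19. Protein-coding exons alone left 3, with a median of 1.15, beside 0.16.

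In 3 tested small membrane subunits of the ATP synthase the groups did not overlap, nor did they in the untested Atp5k, subunit e, with 3 and 3 fragments against 8 and 8. Of the 13 tested members of complex V, 2 had both knockouts above both controls (15.4%), against 19.5% of all tested genes. Only 1 had both below (7.69%), against 11.2%. Atp5mpl had 7 and 0 fragments in the controls, against 15 and 71 in the knockouts, for a log2 fold change of 3.68 (SE 2.46). Atp5l, subunit g, had 80 and 5 against 97 and 144, for 1.63 (SE 1.62). Atp5j2, subunit f, ran the other way at 100 and 398 against 82 and 67, for -1.80 (SE 1.19). Without control 2 the log2 fold changes of Atp5mpl, Atp5l and Atp5j2 were 2.72, 0.73 and -0.27, and without control 1 they were 8.38, 4.495 and -2.47. Without knockout 2 that of Atp5mpl was 2.26. The adjusted p of all 3 was 0.9997 in edgeR, and at least 90.3% of the fragments of each lay in retained-intron exons. The 3 genes of the c-ring, whose mature proteins are the same, had few fragments: Atp5g1 had 13 and 2 against 6 and 25, Atp5g2 had 22 and 1 against 0 and 7, and Atp5g3 had 89 and 15 against 50 and 22. None separated the groups. Processed copies of such genes exist in the genome, and fragments that map to several places were not counted.

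The kind of exon counted moved with the direction of the fitted difference. Of 31 tested members with at least 50% of their fragments in exons of protein-coding transcripts, 22 were negative and the median was -0.30. Of 37 below that share, 26 were positive and the median was 0.27. All tested protein-coding genes showed the same order, with medians of 0.07 and 0.55 in 7033 and 2875 genes. The 10 tested members with 1 annotated transcript were all negative, from -5.06 to -0.06 with a median of -0.46, against 52.8% negative and a median of -0.09 among 1285 such genes. Control 2 was the highest library for 9 of these 10, and without it 4 of them were positive and their median was -0.09. Without a filter on low counts 2 of the 10 were positive, and with limma-voom or a Y-linked covariate 1 was. Whether the kind of exon took part in these values was not tested.

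The subunits encoded in mitochondrial DNA ranked the libraries in the same order as the nuclear members. Their 13 genes summed to 16269 and 43249 CPM in controls 1 and 2 and 14828 and 25737 CPM in knockouts 1 and 2. Control 2 was highest in both sets, followed by knockout 2, control 1 and knockout 1, and the mitochondrial sum was 3.21, 5.65, 3.18 and 4.51 times the nuclear sum. The highest, mt-Co1, the catalytic subunit of complex IV, stood at 4259 and 9074 CPM against 4644 and 6824 CPM. Its mean was 6200 CPM, whereas that of mt-Atp6 was 35.4 CPM, so the sum rests mainly on some of the 13 genes. The part of exon counting in the mitochondrial and nuclear sums was not tested. All 11 tested genes of this list were negative, with a median of -1.01, but all 11 were positive, with a median of 0.37, without control 2, and 0 passed the test in edgeR, at an adjusted or unadjusted p of 0.05.

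None of the pathway lists around the members had a gene past the test, adjusted or not. Assembly factors were split, with 6 positive and 5 negative for complex I, 3 and 1 for complex II, 1 and 3 for complex III and 8 and 9 for complex IV. Timmdc1, a complex I assembly factor, stood at 58.5 and 125 CPM against 40.7 and 47.8 CPM. Uqcc3, a complex III assembly factor, stood at 108 and 192 CPM against 72.9 and 90.5 CPM, and Sdhaf1, which helps insert the iron-sulfur clusters of Sdhb, at 68.3 and 118 CPM against 30.5 and 61.2 CPM. All 3 had both knockouts below both controls. Among tested assembly factors, 1 was below and 1 above for complex I, and 1 and 0 for complex II. For complex III these counts were 2 and 1, and for complex IV 0 and 2. Over all tested genes, 11.2% were below and 19.5% above. Fastkd2, an RNA-binding protein of mitochondria, had no fragment in either control but 12 and 17 in the knockouts, which puts its level at least 4.91-fold higher there (3 fragments per library standing in for 0). Both tested regulators of complex V were negative. One of them, Usmg5, a small ATP synthase subunit outside the symbol rule, had 32 and 307 fragments against 29 and 29, so control 2 was the one high library.

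Electron carriers and enzymes that feed ubiquinone had 8 positive and 6 negative values among 14 tested genes, and the citric acid cycle 9 and 8 among 17. Cs, citrate synthase, was even at 574 and 642 CPM in the controls and 749 and 552 CPM in the knockouts. Regulators of mitochondrial biogenesis had 7 positive and 8 negative values, and of the 15 tested 3 had both knockouts below both controls and 1 above, against 11.2% and 19.5% of all tested genes. Twnk, the helicase of mitochondrial DNA replication, stood at 48.5 and 76.3 CPM against 15.0 and 14.7 CPM, for a log2 fold change of -2.07 (SE 1.02). Tfam, which packages and transcribes mitochondrial DNA and was chosen after its values were seen, had 291 and 289 fragments against 138 and 110. The third was Polg, the DNA polymerase. The gene above was Nrf1, which encodes NRF-1, with 36 and 0 fragments against 84 and 168 and a log2 fold change of 2.93 (SE 2.26), which was 1.94 without control 2 and 9.95 without control 1. Polg and Nrf1 were also named after their values were seen. Carriers and import channels of the mitochondrial membranes had 5 positive and 8 negative values, and Slc25a5, an exchanger of ADP and ATP, stood at 265 and 524 CPM against 284 and 321 CPM, with both knockouts between the controls. All 9 tested genes of uncoupling and reactive oxygen handling were positive, with a median of 0.30, against 0.20 for all genes, although 1 was negative with DESeq2 and 4 of 10 were without control 2. Prdx5, a mitochondrial peroxiredoxin, had both knockouts above both controls at 142 and 112 CPM against 276 and 391 CPM, for a log2 fold change of 1.39 (SE 0.58, adjusted p = 0.9997 in edgeR).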

How the data were processed

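RNA-seq fragments of 4 libraries were counted by the authors: per the file headers, featureCounts 2.0.1 gave raw counts per exon entry of GENCODE M23 on GRCm38, leaving out chimeric pairs and pairs with an unmapped end, and ignoring strand. Trimming used Trim Galore 0.6.7 and alignment STAR 2.7.9a, per the submitters' processing notes. The sources used here do not say whether duplicates were removed. Of 841606 exon entries, 545076 (64.8%) share coordinates with another and held 0 fragments.

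From the deposited counts, entries were summed per gene. Genotypes were compared with edgeR 4.0.16 (R 4.3.3): filterByExpr (minimum count 10), TMM, a two-sided quasi-likelihood test and Benjamini-Hochberg adjustment over 12434 genes at 0.05. The script was tested on simulated data. Alternatives were other size factors, other filters, DESeq2 1.42.0, limma-voom (limma 3.58.1), Y-linked transcripts as a covariate, other exon sets, and each library left out. Transcript types, transcript numbers and gene positions came from GENCODE M21, and promoter windows from RefSeq. Intervals are exact 95% intervals and cover counting error only, since no molecular identifiers are described.

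Genes were named by a rule: the 3 members with the highest mean CPM in complexes I, III, IV and V, all Sdh genes, for each sign of the difference the 3 with the lowest p among those at 5 CPM or more on average, tissue isoforms and c-ring genes, and from each pathway list the genes with the lowest p and the highest level. Other genes named were chosen after their values were seen. Members and lists were chosen with earlier results of these data known. Libraries were numbered in the order of their records, which pairs none of them.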

Additional observations from a re-analysis of the deposited data

How the results depend on the processing

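No paired analysis was possible because the labels give no replicate numbers. Across 14 alternatives (4 that left out a library and 10 others), 0 members passed the test. Genes called among all tested were 27 without a filter on low counts, 17 with DESeq2, and 0 to 4 when a library was left out. The members with both knockouts above both controls were 0 without retained-intron exons, 2 with protein-coding exons alone, and 13 to 29 with a library left out. Those below both controls were 5, 3 and 13 to 26 in the same settings. Fewer members were tested with fewer exons, and a lone library overlaps less easily. The log2 ratio of summed levels was -0.50 to 0.024 with a library left out, the highest without control 2, and the median of the members was -0.23 to 0.20. Without control 1, 13 members had an unadjusted p under 0.05 in edgeR, as did 31.7% of all genes.

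Of 771 values of the 59 single genes named by rule or in the text, 47 changed sign and 0 passed the test anew. The complex medians were 0.035, 0.023, 0.081 and -0.063 for complexes I to IV without a filter on low counts, and that of complex IV was -0.58 with protein-coding exons alone. Outside the omission of a library, sign changes were those of Uqcrfs1 (0.081 without a filter, 0.034 without retained-intron exons, 0.015 with protein-coding exons alone), Sdhc (0.029) and Sdhd (0.017) without a filter, Cox6a2 (0.66 with limma-voom, 0.80 with a Y-linked covariate) and Cox6a1 (-0.0042 with that covariate). With a library left out, 40 of the 68 tested members changed sign at least once. Among the 59 genes, those that did so ranged as follows for members: Sdhc -0.42 to 0.27, Cox6a2 -2.66 to 6.31, Atp5g3 -1.16 to 1.22, Uqcrfs1 -0.31 to 0.33, Uqcrb -2.02 to 0.20, Uqcrc1 -0.063 to 0.70, Cox6c -0.85 to 0.23, Sdha -0.032 to 1.89, Sdhd -0.43 to 0.34, Cox6b2 -0.72 to 6.65, Cox7a2 -0.072 to 7.68, Ndufa1 -1.10 to 0.025, Ndufb3 -0.86 to 0.099, Atp5b -0.10 to 0.40, Sdhb -0.19 to 0.047, Cox6a1 -0.26 to 0.37 and Atp5g1 -0.13 to 2.80. For other genes the ranges were Yy1 -0.78 to 0.57, mt-Atp6 -2.92 to 1.04, mt-Co1 -0.60 to 0.42, Ndufab1 -1.37 to 0.31, Cox14 -0.31 to 0.080, Usmg5 -3.45 to 0.0049, Atpif1 -1.52 to 0.20, Coq9 -0.78 to 0.32, Slc25a5 -0.73 to 0.18, Ucp2 -0.15 to 1.00, Cs -0.091 to 0.38 and Tomm40 -0.27 to 9.21. The cause of these changes was not tested. A lone library in a group was assumed to vary like the other group.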
